A study of Homo sapiens with 59 samples.

Results

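The transcripts described here are those of 10 genes for cellular iron uptake, export and sensing, followed in HepG2 cells treated with 6 water extracts of medicinal plants, with wortmannin or with vehicle. The genes were taken by name from a deposited table of 60675 genes: TFRC, TFR2, SLC40A1, SLC11A2, HFE, HJV, TMPRSS6, IREB2, ACO1 and CP. All 10 were found in the table. Of these, 9 passed the filter on low counts and were tested among 16641 genes, and HJV did not.

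Iron bound to transferrin enters a cell through the transferrin receptor, is reduced and leaves the endosome through a ferrous iron transporter, is stored in ferritin, and leaves the cell through ferroportin. Inside the cell, iron regulatory proteins bind hairpins in transcripts, the iron responsive elements (IREs), when iron is low. Binding in the 3′ UTR protects the TFRC transcript from decay, and binding in the 5′ UTR blocks translation of ferritin and ferroportin transcripts, an effect that a transcript count does not show. The liver also senses iron for the whole body: TFR2, HFE and hemojuvelin raise the hormone hepcidin, which removes ferroportin from cell surfaces, and the protease TMPRSS6 lowers it.

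HepG2 is a line from a human hepatocellular carcinoma. The 2 ginger extracts were of Zingiberis Rhizoma Recens, called fresh ginger here, and Zingiberis Rhizoma, called dried ginger. They were given at 20, 100 and 500 ug/mL, as was each extract of Scutellariae Radix, of Zizyphi Fructus and of Pinelliae Tuber, while that of Coptidis Rhizoma was given at 8.4, 42 and 210 ug/mL. Wortmannin, an inhibitor of phosphoinositide 3-kinase, was given at 10 uM as the positive control, and the reference for all was the DMSO vehicle, after 24 h in every group. There were 3 libraries in 19 of the 20 groups and 2 (replicates 1 and 3) with Pinelliae Tuber at 20 ug/mL, 59 libraries in all. The vehicle held 0.1% DMSO by the sample labels and 2% by the series text, and the labels of the treated cells name no DMSO. Nothing states that replicates were separate cultures, so the p-values measure the spread between these libraries, which may be technical. A number in the sample titles, whose meaning is not given, was 1 for wortmannin and 2 for both gingers. For vehicle it was 1 with the letter A before it, and whether vehicle and wortmannin thus share it is not stated. It was 3 for the Scutellariae and Pinelliae libraries, and 4 for those of Zizyphi and Coptidis. A comparison with vehicle therefore crosses this number for every extract, whereas doses of one extract share it.

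Library totals were 21582620 to 31392112 estimated counts (median 25834202). The 9 hepatocyte markers examined, ALB, AFP, APOA1, APOB, TTR, SERPINA1, HNF4A, FGB and TF, were present in all 59 libraries and summed to 24179.9 to 49144 CPM (counts scaled by TMM-adjusted library totals). Their sum moved with treatment: it was 24179.9 to 25214 CPM with Coptidis 210 ug/mL, 28331 to 29197 CPM with Scutellariae 500 ug/mL, 36517 to 37509 and 34645 to 39493 CPM with fresh and dried ginger 500 ug/mL and 48065 to 49144 CPM with wortmannin, against 42425 to 43206 CPM with vehicle. Of 17 markers of other cell types, 8 were tested. Their summed level was 711 to 733 CPM with Coptidis 210 ug/mL, 491 to 498 CPM with Scutellariae 500 ug/mL, 464 to 478 and 456 to 496 CPM with the gingers at 500 ug/mL and 365 to 377 CPM with wortmannin, against 374 to 382 CPM with vehicle, nearly all of it KRT19, EPCAM, ACTA2 and CD68. Of the immune markers, PTPRC, CD163, MARCO, CD3E and MS4A1 were at or near 0 in every library, whereas CD68 was at 25.3 to 86.5 CPM. HBB was at 0 in all 59 libraries, and HBA1 was at 0.561 to 3.02 CPM. PECAM1 was at 1.86 to 4.51 CPM. The part of these shifts in the results below was not tested. A mean chi-square per gene between replicates was read without a fixed threshold, and 3 libraries were taken as standing apart. These were replicate 1 of dried ginger 500 ug/mL (17.5 and 12.6 against its partners) and replicate 3 of Pinelliae 100 ug/mL (14.6 and 14.5). The other was replicate 1 of Zizyphi 20 ug/mL (32.3 and 15.4). Member calls that were gained or lost with these 3 left out are named where they occur. That refit kept other libraries with high values. Replicate 3 of Coptidis 8.4 ug/mL had 12 and 8.48 against its partners, and replicates 2 and 3 of Zizyphi 20 ug/mL differed by 9.46.

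The IRE sites are shown because they are the elements through which iron regulatory proteins are known to act on these members. GENCODE 29 transcripts of 58721 genes were searched for CNNNNNCAGTGN followed by 5 bases that pair with the 5 before the loop, with a last loop base other than G and at least 4 of 6 pairs in the lower stem. Both stems were found in 63 genes, among them 2 members, TFRC with 4 sites in its 3′ UTR and SLC40A1 with 1 in its 5′ UTR. No stretch of the SLC11A2 transcripts met the search. Of 11 genes listed as carrying an IRE, SLC11A2 among them, the search found a site in 6. Elements that depart from its pattern can therefore be missed. The sites below are on GRCh38, given 5′ to 3′ as DNA letters, with the unpaired C and the 6-base loop in capitals. TFRC site A lies at chr3:196050978-196051007, site B at chr3:196050574-196050603, site C at chr3:196050509-196050538 and site D at chr3:196050462-196050491, all on the minus strand. The letters A to D only number the TFRC sites found by this search from 5′ to 3′, and are not the established names of TFRC elements. The SLC40A1 site lies at chr2:189580660-189580689 on the minus strand. For comparison, the ferritin sites are those of FTH1 at chr11:61967573-61967602 on the minus strand and of FTL at chr19:48965335-48965364 on the plus strand, both in the 5′ UTR.
TFRC site A: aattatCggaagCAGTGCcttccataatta
TFRC site B: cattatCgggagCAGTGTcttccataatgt
TFRC site C: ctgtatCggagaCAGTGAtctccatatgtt
TFRC site D: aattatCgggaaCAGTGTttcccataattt
SLC40A1 5′ UTR site: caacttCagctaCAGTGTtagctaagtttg
FTH1 5′ UTR site: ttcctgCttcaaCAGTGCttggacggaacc
FTL 5′ UTR site: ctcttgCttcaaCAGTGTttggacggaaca

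The TFRC promoter is shown because it holds ACGTG, a form of the core of the hypoxia response element and the only form of it searched. It was taken from the RefSeq promoter table (GRCh38.p14, 250 bases before to 50 after the start). Whether these letters have a part in any TFRC change was not tested. The table had entries for 7 of the 10 members; TFR2, TMPRSS6 and CP were not among them. ACGTG was searched on both strands and occurred in the promoters of TFRC and HFE, and in 21.4% of 35116 promoters of this length. Of the other motifs searched on both strands, TGACNNNGC was in the HJV promoter (13.3% of all promoters), TTGCGTG in 1 of the SLC11A2 promoters (1.16%) and CACGTG, which contains ACGTG, in none of the members' (7.26%). In TFRC, at chr3:196082041-196082340 on the minus strand, the letters start at position 163 of the window and are in capitals.
TFRC promoter: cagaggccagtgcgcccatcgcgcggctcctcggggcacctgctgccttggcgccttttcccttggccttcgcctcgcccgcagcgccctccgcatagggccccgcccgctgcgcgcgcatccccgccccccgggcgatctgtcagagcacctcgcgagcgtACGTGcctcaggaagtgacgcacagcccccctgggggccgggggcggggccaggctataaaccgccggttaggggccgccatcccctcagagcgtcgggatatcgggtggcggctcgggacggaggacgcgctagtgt

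Per kilobase of exon, TFRC had the highest level of the 10 transcripts, with a median over libraries of 65.3 CPM per kb. The medians of SLC40A1, CP, IREB2, ACO1, SLC11A2 and TFR2 lay between 15.2 and 6.57 CPM per kb, and those of HFE and TMPRSS6 were 1.06 and 0.911 CPM per kb. HJV, which encodes hemojuvelin, a co-receptor for bone morphogenetic proteins, was at 0 in 20 of 59 libraries and at 3 estimated counts or fewer in 54, with a highest count of 6. It was therefore not detectable as changed at this depth, and no fold is given. The depth behind the other members was 31 to 217 estimated counts per library for TMPRSS6, 83 to 207 for HFE and at least 373 for the remaining 7. The deposited estimates of CP were not whole numbers in 58 of 59 libraries, so some CP reads were divided between genes by the authors' estimate, and its level is uncertain by that share. The other 9 members had whole numbers in every library.

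At the top doses, 8 of the 9 tested members changed against vehicle with fresh ginger, dried ginger and Coptidis, and 7 with Scutellariae. With fresh ginger 500 ug/mL 3 members rose and 5 fell, in a comparison that called 46% of all genes (adjusted p under 0.05, edgeR's quasi-likelihood test with Benjamini-Hochberg adjustment over all genes, here and below). With dried ginger 500 ug/mL 3 rose and 5 fell (42.4% of all genes called), with Scutellariae 500 ug/mL 2 rose and 5 fell (50.2%), and with Coptidis 210 ug/mL 1 rose and 7 fell (69.4%). The shares of members called lay above those of all genes. The 9 genes were listed by function but with earlier results of these data known, so the excess is no test of iron genes. The median log2 change of the members was -0.22, -0.14, -0.24 and -0.66 in these 4 comparisons, against -0.0007, -0.0041, 0.01 and -0.0029 over all genes tested. In bulk libraries, fewer cells of a type and less RNA per cell cannot be told apart.

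**Figure D1:**
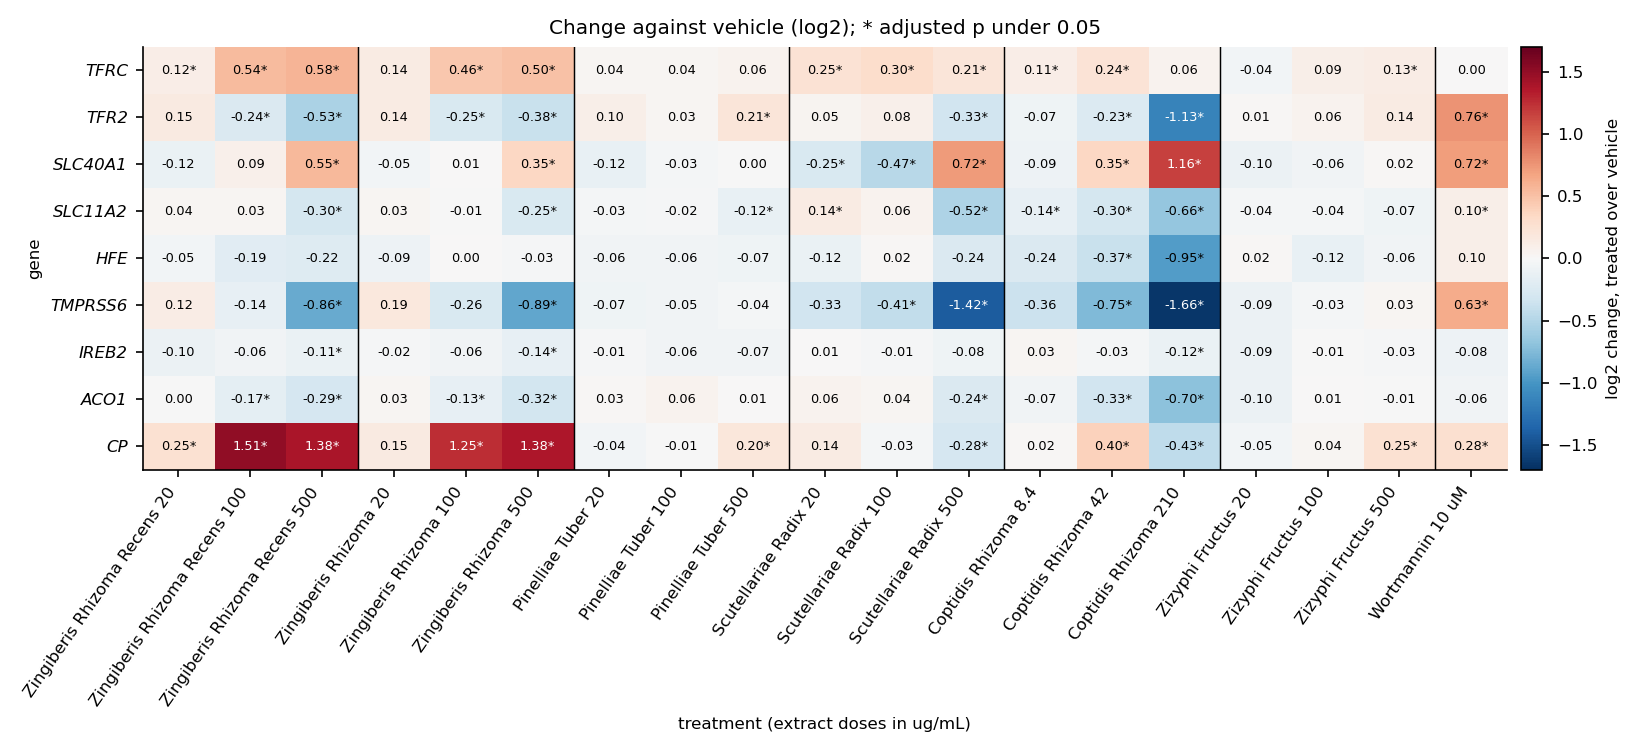
Log2 change of the 9 tested members (rows) in each of the 19 treated groups over vehicle (columns, extract doses low to high, then wortmannin). Colour and number give the log2 change from 1 fit of 59 libraries, and an asterisk marks an adjusted p under 0.05. TFRC and CP rose most with the gingers, SLC40A1 and TMPRSS6 moved most with Coptidis 210 ug/mL (1.16 and -1.66), and Pinelliae and Zizyphi left nearly all members uncalled.

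At lower doses fewer members were called. With 100 ug/mL, fresh and dried ginger each raised 2 members and lowered 2 (22.2% and 17.5% of all genes called), and with 20 ug/mL fresh ginger raised 2 (5.13%). Scutellariae raised 1 and lowered 2 at 100 ug/mL (14.6%) and raised 2 and lowered 1 at 20 ug/mL (4.75%). Coptidis raised 3 and lowered 5 at 42 ug/mL (46.9%) and raised 1 and lowered 1 at 8.4 ug/mL (16%). Wortmannin raised 5 members (32.2%), and no member was called lower in the edgeR fit of all groups or in DESeq2, or had an unadjusted p under 0.05 for a fall in either. In an edgeR fit of only the 2 groups, IREB2 was called lower (log2 change -0.087, adjusted p = 0.0217). Pinelliae 500 ug/mL raised 2 and lowered 1 (4.57%), and Zizyphi 500 ug/mL raised 2 (3.61%). No member was called in edgeR with dried ginger 20 ug/mL (0.0841% of all genes), Pinelliae 100 ug/mL (0.204%), Pinelliae 20 ug/mL (0.00601%), Zizyphi 100 ug/mL (0.294%) or Zizyphi 20 ug/mL (1.99%). At an unadjusted p under 0.05 there were 3, 0, 1, 1 and 3 members in these 5 comparisons, in the same order, and DESeq2 called 1 in the first and 0 in the other 4.

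TFRC (ENSG00000072274, chromosome 3, 196027183 to 196082189, minus strand) encodes transferrin receptor 1, which takes up iron-loaded transferrin. It rose in 11 of 19 comparisons with vehicle and fell in none. The rise was largest with the gingers: the libraries had 694, 702 and 709 CPM with fresh ginger 500 ug/mL, against 467, 476 and 468 CPM with vehicle (log2 change 0.58, SE 0.034, adjusted p = 6.17e-20). With dried ginger 500 ug/mL they had 615, 702 and 677 CPM against the same vehicle libraries (log2 change 0.50, SE 0.034, adjusted p = 1.67e-17). Every ginger library at 500 ug/mL lay above every vehicle library, and replicate 1 of dried ginger, one of the libraries that stood apart, was the lowest of them. At 100 ug/mL the changes were nearly as large, with means of 682 ± 7.63 and 648 ± 6.82 CPM for fresh and dried ginger (SD, n = 3 each; log2 changes 0.54 and 0.46). At 20 ug/mL fresh ginger reached 511 ± 9.46 CPM (SD, n = 3; log2 change 0.12, adjusted p = 0.0324), a call that was lost without any 1 of the 6 libraries compared (adjusted p = 0.0815 to 0.126). Dried ginger at 20 ug/mL had 517 ± 7.67 CPM (SD, n = 3; log2 change 0.14, adjusted p = 0.133), and was called by DESeq2 (adjusted p = 0.0119), without the 3 libraries that stood apart (adjusted p = 0.0148) and in a fit of only the groups compared (adjusted p = 0.00812).

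With Scutellariae the TFRC rise did not grow with dose: the means were 559 ± 3.60, 579.7 ± 18.2 and 543 ± 4.28 CPM at 20, 100 and 500 ug/mL (SD, n = 3 each), and the log2 changes 0.25, 0.30 and 0.21, all called. With Coptidis the middle dose had the highest level. The libraries had 545, 545 and 569.9 CPM at 42 ug/mL, against 467, 476 and 468 CPM with vehicle (log2 change 0.24, SE 0.034, adjusted p = 9.68e-08), whereas at 210 ug/mL they had 498, 473 and 500.5 CPM, which overlapped the vehicle libraries (log2 change 0.061, adjusted p = 0.11). That last difference was called in DESeq2 (adjusted p = 0.0336), with RLE size factors (adjusted p = 0.0452) and without Coptidis 210 ug/mL replicate 2 (adjusted p = 0.0363). The rise at 8.4 ug/mL (log2 change 0.11, adjusted p = 0.0197) was lost without vehicle replicate 1 or 3 or without Coptidis 8.4 ug/mL replicate 1 or 2 (adjusted p = 0.0604 to 0.0908). Zizyphi 500 ug/mL raised TFRC by 0.13 (adjusted p = 0.0189), a call lost without any vehicle library or without Zizyphi 500 ug/mL replicate 1 or 2 (adjusted p = 0.0656 to 0.128). Wortmannin left TFRC at 464, 472 and 475 CPM, a log2 change of 0.0006 with a 95% interval of -0.067 to 0.068. With no filter on low counts the calls of fresh ginger 20 ug/mL, Coptidis 8.4 ug/mL and Zizyphi 500 ug/mL were lost (adjusted p = 0.131, 0.112 and 0.0778). In the order of the 20 group means, the 4 ginger groups at 500 and 100 ug/mL came first, vehicle was 19th, and the libraries of 15 of the 19 neighbouring pairs of groups overlapped.

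TFR2 (ENSG00000106327, chromosome 7, 100620416 to 100642779, minus strand) encodes transferrin receptor 2, an iron sensor of hepatocytes. It fell in 7 comparisons with vehicle and rose in 2. The lowest level was with Coptidis 210 ug/mL, at 14.2, 15.5 and 15.1 CPM, against 33.7, 32.1 and 32.4 CPM with vehicle (log2 change -1.13, SE 0.057, adjusted p = 9.54e-24), and the groups did not overlap. The highest was with wortmannin, at 53.5, 55.1 and 57.8 CPM against the same vehicle libraries (log2 change 0.76, SE 0.049, adjusted p = 1.15e-17) and again with no overlap, while TFRC was not called with wortmannin. With fresh ginger the log2 changes were 0.15 at 20 ug/mL (adjusted p = 0.0587), -0.24 at 100 ug/mL and -0.53 at 500 ug/mL, the last 2 called, and with dried ginger 0.14 (adjusted p = 0.384), -0.25 and -0.38, again the last 2 called. The change with fresh ginger 20 ug/mL was called without the 3 libraries that stood apart (adjusted p = 0.0198) and in a fit of only the groups compared (adjusted p = 0.0394). TFR2 with Zizyphi 500 ug/mL (0.14, adjusted p = 0.108) was also called in these 2 alternatives (adjusted p = 0.0428 and 0.0416). At 500 ug/mL the means were 22.6 ± 1.45 CPM with fresh and 25.2 ± 1.39 CPM with dried ginger (SD, n = 3 each). Coptidis 42 ug/mL (log2 change -0.23) and Scutellariae 500 ug/mL (-0.33) also lowered TFR2. Pinelliae 500 ug/mL raised it by 0.21 (adjusted p = 0.00794), a call lost without vehicle replicate 2 (adjusted p = 0.0636) or Pinelliae 500 ug/mL replicate 3 (adjusted p = 0.133). Hepatocyte markers were also lowest with Coptidis 210 ug/mL and highest with wortmannin, and their part in the TFR2 changes was not tested.

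**Figure D2:**
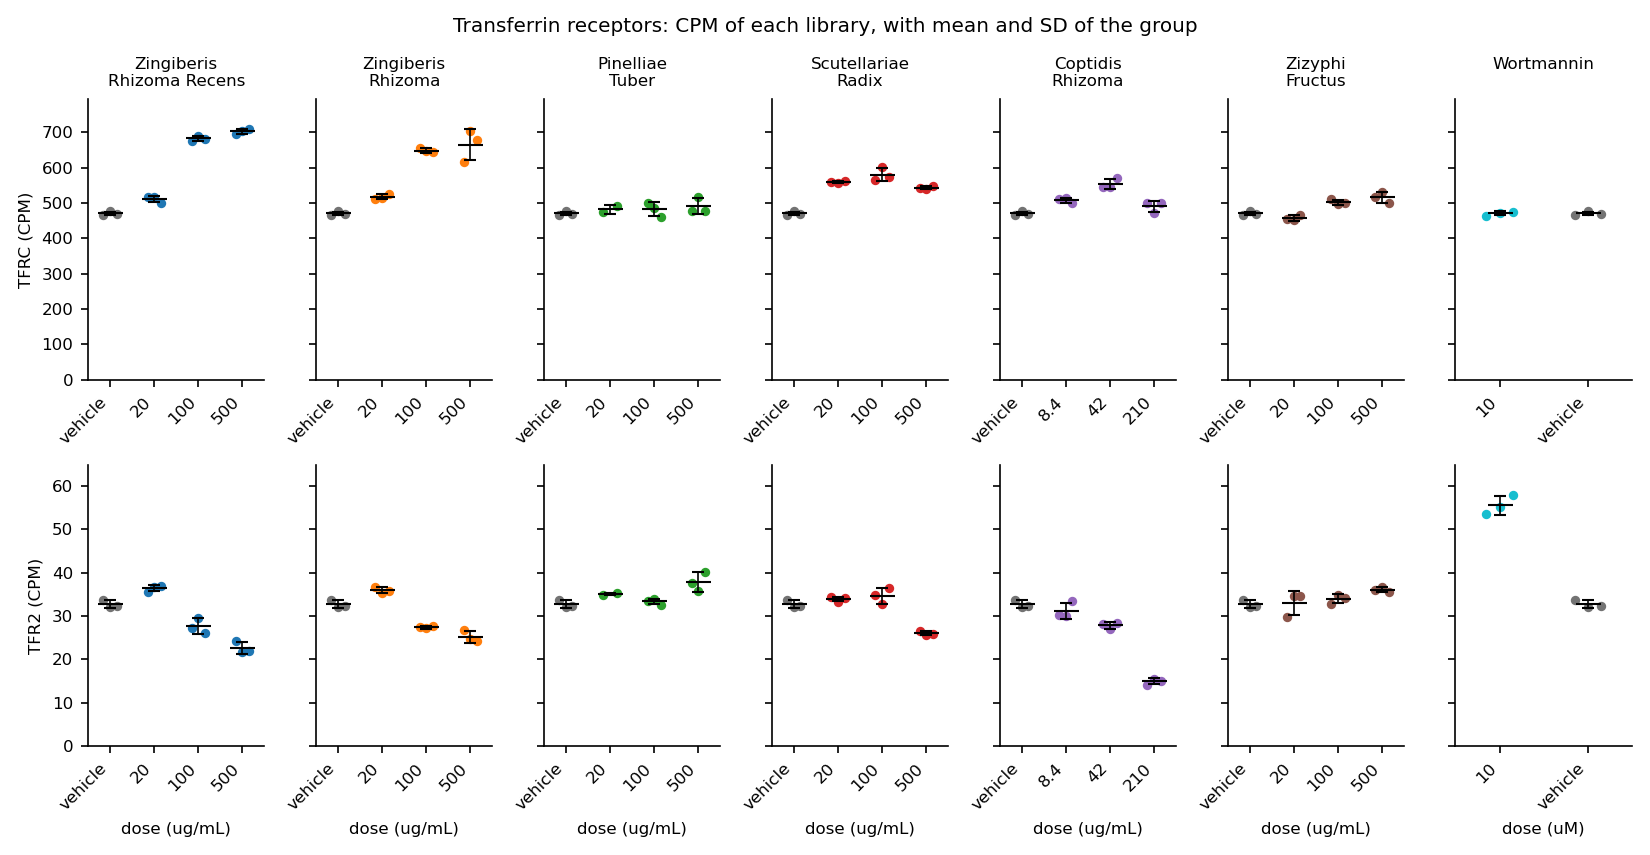
CPM of TFRC (upper row) and TFR2 (lower row) in every library (points), with the mean and SD of each group (black), by dose of each extract with vehicle (grey) at the low end, and wortmannin left of vehicle in the last panels; axes start at 0. TFRC reaches 694 to 709 CPM with fresh ginger 500 ug/mL, against 467 to 476 CPM with vehicle, and TFR2 is lowest with Coptidis 210 ug/mL.

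SLC40A1 (ENSG00000138449, chromosome 2, 189560579 to 189583758, minus strand) encodes ferroportin, the iron exporter. It rose at the top dose of 4 extracts and with wortmannin. Coptidis 210 ug/mL gave 149, 143 and 148 CPM, against 66.1, 65.3 and 65.8 CPM with vehicle (log2 change 1.16, SE 0.042, adjusted p = 1.46e-29), a level 2.23 times that of vehicle with no overlap. Wortmannin gave 111, 109 and 104 CPM (log2 change 0.72, SE 0.042, adjusted p = 4.94e-19). With the gingers at 500 ug/mL the means were 96.5 ± 3.86 CPM for fresh and 83.9 ± 2.97 CPM for dried (SD, n = 3 each; log2 changes 0.55 and 0.35), while at 100 and 20 ug/mL neither ginger was called. Without the 3 libraries that stood apart, fresh ginger 20 ug/mL was called lower (log2 change -0.12, adjusted p = 0.0417). Coptidis 42 ug/mL raised SLC40A1 by 0.35, and at 8.4 ug/mL the change was -0.09 (adjusted p = 0.165).

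Scutellariae changed SLC40A1 in opposite directions by dose. The libraries had 54.9, 54.2 and 56.3 CPM at 20 ug/mL, 45.8, 49.1 and 47.7 CPM at 100 ug/mL and 108, 103 and 113 CPM at 500 ug/mL, and those of vehicle had 66.1, 65.3 and 65.8 CPM. The 20 and 100 ug/mL libraries all lay below the vehicle libraries (log2 changes -0.25 and -0.47, adjusted p = 7.07e-05 and 9.46e-12), and the 500 ug/mL libraries all lay above them (log2 change 0.72, SE 0.042, adjusted p = 3.14e-20). The groups at 100 and 20 ug/mL were the lowest 2 of all 20, and the only 2 in which SLC40A1 was called lower than vehicle. These calls held in edgeR, DESeq2 and every alternative run, leaving out each library included.

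CP (ENSG00000047457, chromosome 3, 149162410 to 149222055, minus strand) encodes ceruloplasmin, a copper protein secreted by the liver that oxidises the iron ferroportin exports. It had the largest rise of the members, and that was with the gingers. Fresh ginger gave 195, 205 and 187 CPM at 100 ug/mL and 182, 181 and 176 CPM at 500 ug/mL, against 68.7, 64.1 and 73.7 CPM with vehicle (log2 changes 1.51 and 1.38, SE 0.056 and 0.056, adjusted p = 4.22e-27 and 2.07e-26). Dried ginger gave 160.0, 167 and 164 CPM at 100 ug/mL and 174, 188 and 174 CPM at 500 ug/mL (log2 changes 1.25 and 1.38). All 12 of these libraries lay above every other library of the study. At 20 ug/mL fresh ginger had 75.4, 94.8 and 76.2 CPM (log2 change 0.25, adjusted p = 0.00845), of which replicate 2 was the highest: without it the change was 0.14 (adjusted p = 0.112), and the call was also lost without vehicle replicate 2 (adjusted p = 0.0808).

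The other extracts moved CP less, and in both directions. Coptidis raised it at 42 ug/mL, with 87.7, 93.0 and 90.9 CPM, against 68.7, 64.1 and 73.7 CPM with vehicle (log2 change 0.40), and lowered it at 210 ug/mL, with 50.2, 50.5 and 52.3 CPM (log2 change -0.43). Neither group overlapped vehicle. With Scutellariae 500 ug/mL CP fell by 0.28 on the log2 scale, to 58.7, 57.2 and 54.3 CPM, and wortmannin raised it by 0.28. The small rises with Pinelliae 500 ug/mL (log2 change 0.20, adjusted p = 0.0375) and Zizyphi 500 ug/mL (0.25, adjusted p = 0.00616) depended on single libraries: the first was lost without vehicle replicate 1 or 2 or any of the 3 Pinelliae libraries (adjusted p = 0.0518 to 0.28), the second without vehicle replicate 2 (adjusted p = 0.102).

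SLC11A2 (ENSG00000110911, chromosome 12, 50979401 to 51028566, minus strand) encodes the divalent metal transporter that moves ferrous iron across the endosome membrane. It fell with Coptidis at all 3 doses, with log2 changes of -0.14, -0.30 and -0.66 at 8.4, 42 and 210 ug/mL. At 210 ug/mL the libraries had 52.6, 53.5 and 54.8 CPM, against 87.4, 81.4 and 85.7 CPM with vehicle (log2 change -0.66, SE 0.029, adjusted p = 5.41e-26), with no overlap. Scutellariae 500 ug/mL had 57.4, 60.0 and 59.7 CPM (log2 change -0.52, SE 0.029, adjusted p = 2.64e-21), while at 20 ug/mL it had 92.1, 93.2 and 94.6 CPM, above the vehicle libraries (log2 change 0.14, adjusted p = 0.000773). Both gingers lowered it at 500 ug/mL (log2 changes -0.30 for fresh and -0.25 for dried) and at neither lower dose. The smaller calls rested on few libraries: the fall with Pinelliae 500 ug/mL (-0.12) was lost without vehicle replicate 1 (adjusted p = 0.0639), and the rise with wortmannin (0.10) became 0.065 without vehicle replicate 2 (adjusted p = 0.104). Both, and the calls with Scutellariae 20 ug/mL and Coptidis 8.4 ug/mL, were lost with no filter on low counts (adjusted p = 0.19, 0.248, 0.121 and 0.0799), and the Pinelliae call also in a fit of only the groups compared (adjusted p = 0.0768).

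**Figure D3:**
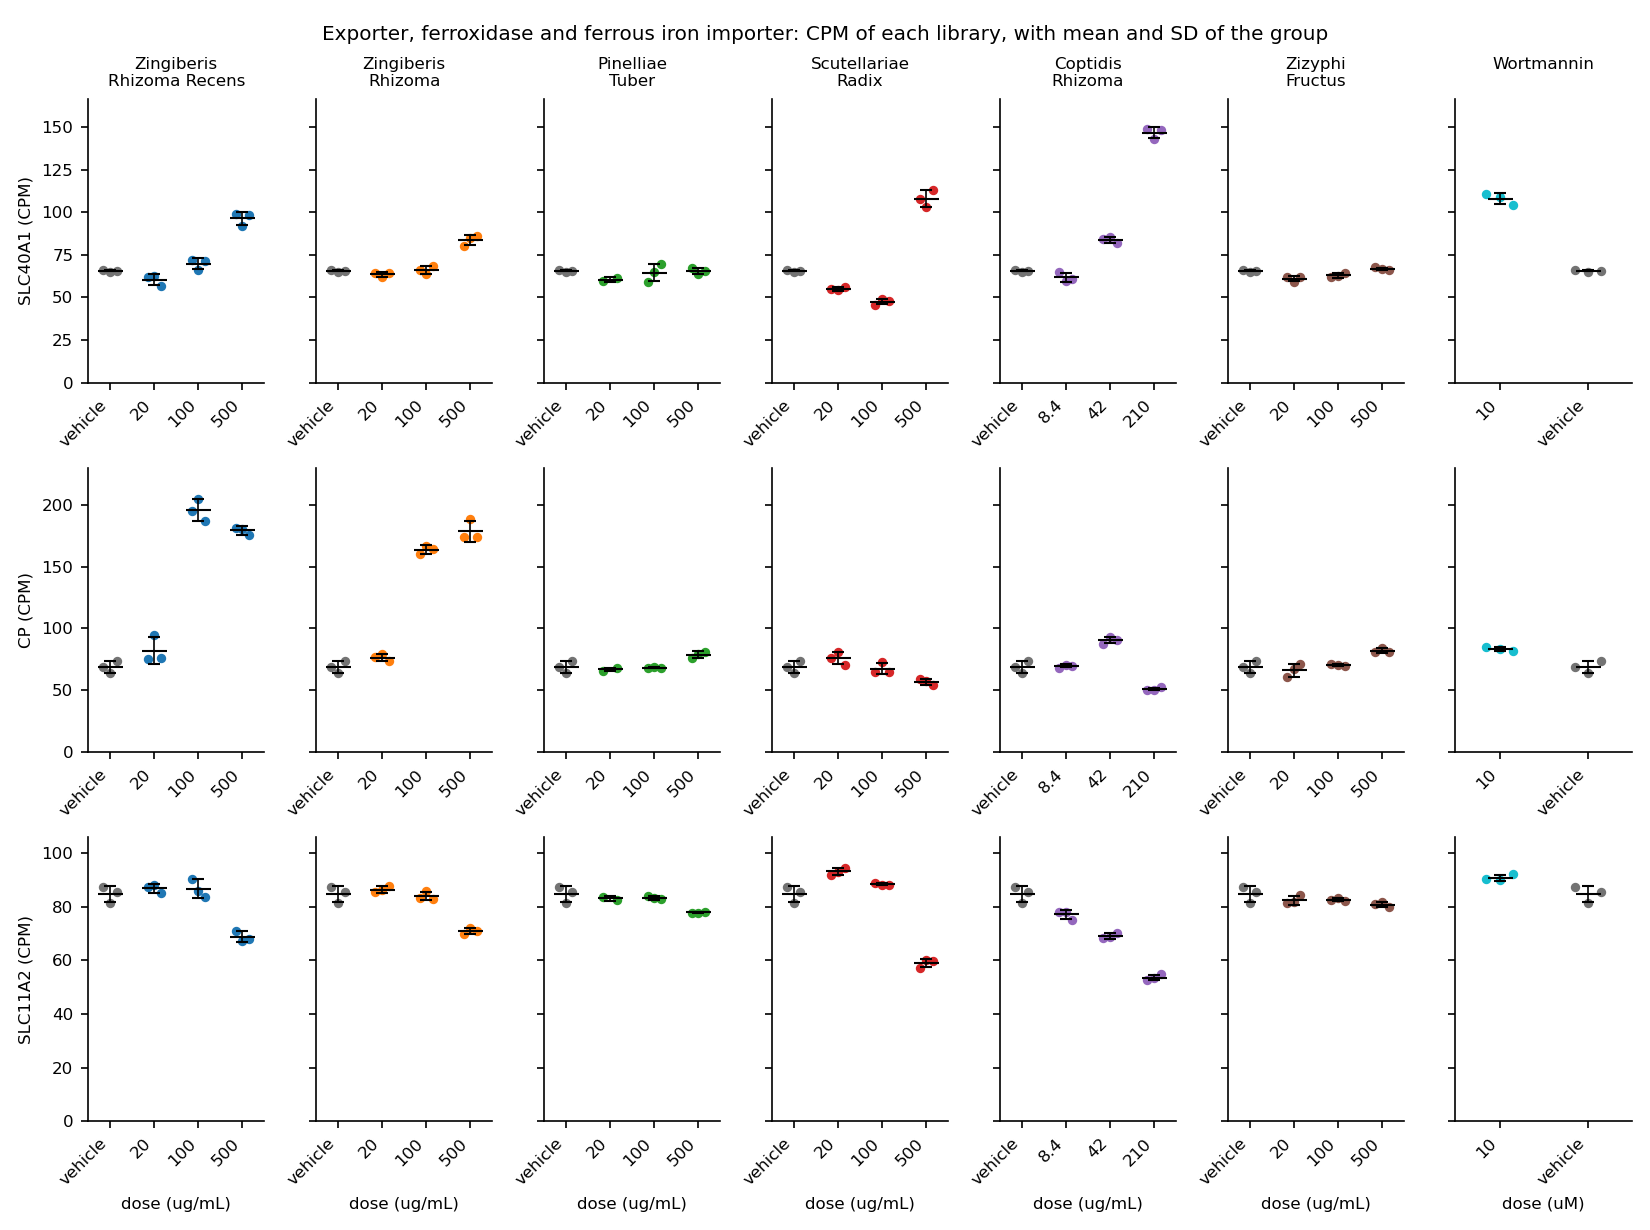
CPM of SLC40A1, CP and SLC11A2 (rows) in every library (points), with group mean and SD (black), by dose of each extract with vehicle (grey) at the low end, and wortmannin left of vehicle; axes start at 0. SLC40A1 dips below vehicle at 20 and 100 ug/mL of Scutellariae and lies at 103 to 113 CPM at 500 ug/mL, and CP stands out with both gingers at 100 and 500 ug/mL.

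Of the 2 iron regulatory proteins, the transcript of ACO1 fell and that of IREB2 hardly moved. ACO1 (ENSG00000122729, chromosome 9, 32384603 to 32454769, plus strand) encodes IRP1, which is the cytosolic aconitase when it holds an iron-sulfur cluster. It fell in 7 comparisons with vehicle and rose in none: with Coptidis 210 ug/mL the libraries had 46.4, 41.9 and 43.6 CPM, against 73.2, 70.6 and 70.4 CPM with vehicle (log2 change -0.70, SE 0.042, adjusted p = 1.74e-20), with no overlap. Coptidis 42 ug/mL gave a log2 change of -0.33, Scutellariae 500 ug/mL -0.24, fresh ginger -0.17 at 100 and -0.29 at 500 ug/mL, and dried ginger -0.13 at 100 and -0.32 at 500 ug/mL. The call with dried ginger 100 ug/mL (adjusted p = 0.015) was lost without vehicle replicate 1 (adjusted p = 0.0724), without dried ginger 100 ug/mL replicate 2 (adjusted p = 0.0688) and with no filter on low counts (adjusted p = 0.0867).

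IREB2 (ENSG00000136381, chromosome 15, 78437431 to 78501456, plus strand) encodes IRP2, which is controlled by protein breakdown. Its highest library was 1.26 times its lowest, the narrowest range of the 9 tested members. It was called lower with fresh ginger 500 ug/mL (log2 change -0.11, adjusted p = 0.0456), dried ginger 500 ug/mL (-0.14, adjusted p = 0.0106) and Coptidis 210 ug/mL (-0.12, adjusted p = 0.0196). Each of these calls depended on single libraries. The first was lost without vehicle replicate 1 or 2 or fresh ginger 500 ug/mL replicate 1 or 2 (adjusted p = 0.055 to 0.177), in DESeq2 (adjusted p = 0.052), with RLE size factors (adjusted p = 0.0508) and with no filter (adjusted p = 0.108). The second was lost without vehicle replicate 1 (adjusted p = 0.0777), in a fit of only the groups compared (adjusted p = 0.0622) and without dried ginger 500 ug/mL replicate 1, which stood apart (log2 change -0.091, adjusted p = 0.143), or without all 3 libraries that stood apart (adjusted p = 0.0843). The third was lost without vehicle replicate 1 (adjusted p = 0.113), Coptidis 210 ug/mL replicate 2 (adjusted p = 0.124) or the filter (adjusted p = 0.073). With Zizyphi 20 ug/mL, IREB2 was called lower without replicate 3 of that group (log2 change -0.17, adjusted p = 0.0134) and not with it (-0.094, adjusted p = 0.276).

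TMPRSS6 (ENSG00000187045, chromosome 22, 37065436 to 37109713, minus strand) encodes matriptase-2, the liver protease that cuts hemojuvelin. It had the largest falls of the members. The libraries had 1.58, 1.22 and 1.33 CPM with Coptidis 210 ug/mL, against 4.36, 4.29 and 4.45 CPM with vehicle (log2 change -1.66, SE 0.17, adjusted p = 8.05e-13). With Scutellariae 500 ug/mL they had 1.54, 1.90 and 1.45 CPM (log2 change -1.42, SE 0.17, adjusted p = 1.06e-10). The means with the gingers at 500 ug/mL were 2.42 ± 0.376 CPM for fresh and 2.36 ± 0.4 CPM for dried (SD, n = 3 each; log2 changes -0.86 and -0.89). None of these 4 groups overlapped vehicle, and Coptidis 42 ug/mL (-0.75) also lowered it. With wortmannin TMPRSS6 rose to 6.35, 6.44 and 7.41 CPM (log2 change 0.63, SE 0.13, adjusted p = 7.87e-05), the opposite direction, above all vehicle libraries. The fall with Scutellariae 100 ug/mL (log2 change -0.41, adjusted p = 0.0366) was lost without any vehicle library or without replicate 2 or 3 of that group (adjusted p = 0.0705 to 0.164), in DESeq2 (adjusted p = 0.0569) and with no filter (adjusted p = 0.0598).

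HFE (ENSG00000010704, chromosome 6, 26087281 to 26098343, plus strand) encodes a protein that binds the transferrin receptors and is mutated in hereditary hemochromatosis. It was called with Coptidis 42 and 210 ug/mL and in no other comparison with vehicle. The libraries had 3.13, 3.43 and 3.40 CPM at 210 ug/mL, against 6.21, 6.99 and 6.01 CPM with vehicle (log2 change -0.95, SE 0.12, adjusted p = 4.42e-10), and 5.00, 5.24 and 4.60 CPM at 42 ug/mL (log2 change -0.37, adjusted p = 0.00382). Neither dose overlapped vehicle. With Scutellariae 500 ug/mL the change was -0.24 (adjusted p = 0.0568), and it was called without vehicle replicate 3 (adjusted p = 0.0451) or Scutellariae 500 ug/mL replicate 2 (adjusted p = 0.0156). With fresh ginger 500 ug/mL it was -0.22 (adjusted p = 0.0923), though the 3 libraries lay below those of vehicle. In the order of the group means, 18 of 19 neighbouring pairs overlapped, and only Coptidis 210 ug/mL stood clear of its neighbour. HJV was at 0 in all 6 libraries of Coptidis 42 and 210 ug/mL, against 0.193, 0.038 and 0 CPM with vehicle, counts too few to set the groups apart.

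**Figure D4:**
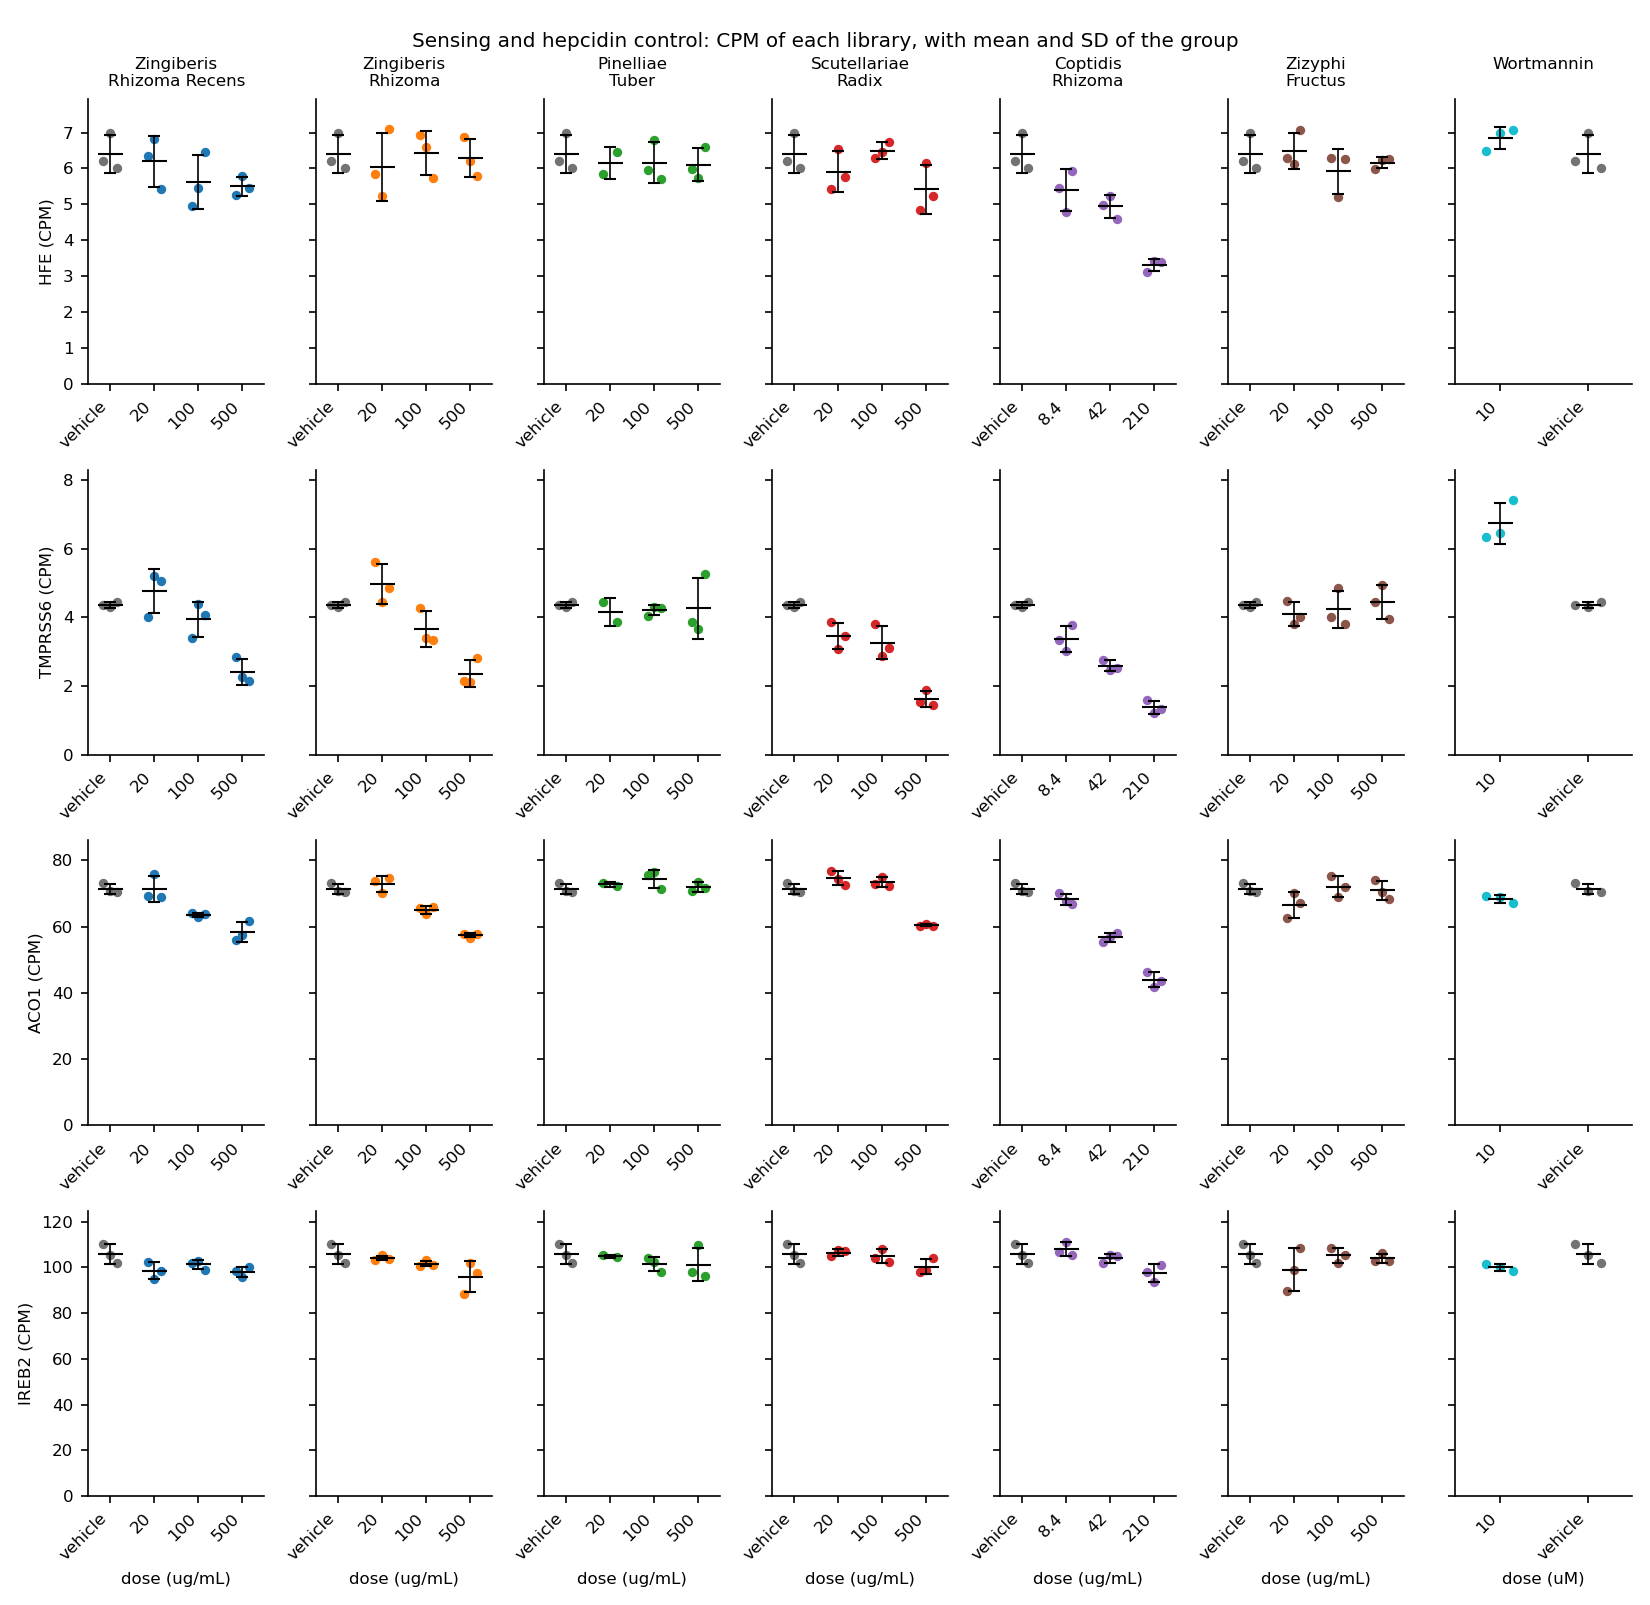
CPM of HFE, TMPRSS6, ACO1 and IREB2 (rows) in every library (points), with group mean and SD (black), by dose of each extract with vehicle (grey) at the low end, and wortmannin left of vehicle; axes start at 0. TMPRSS6, ACO1 and HFE step down with Coptidis dose, to 1.22 to 1.58 CPM for TMPRSS6 at 210 ug/mL, while IREB2 stays between 88.6 and 111 CPM in every library.

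The top dose was also set against the bottom dose of each extract, a comparison within 1 title number that does not use the vehicle libraries. With fresh ginger 3 members rose and 4 fell between 20 and 500 ug/mL (48% of all genes called), with dried ginger 3 rose and 5 fell (40.9%), with Scutellariae 1 rose and 5 fell (49.9%) and with Coptidis, 210 against 8.4 ug/mL, 1 rose and 7 fell (65.8%). SLC40A1 rose with all 4, by 0.67 (95% interval 0.59 to 0.76) with fresh ginger, 0.40 (0.32 to 0.48) with dried ginger, 0.97 (0.89 to 1.06) with Scutellariae and 1.25 (1.17 to 1.33) with Coptidis. TFR2, SLC11A2, TMPRSS6 and ACO1 fell with all 4. CP divided them, with a rise of 1.13 for fresh and 1.23 for dried ginger and log2 changes of -0.42 for Scutellariae and -0.45 for Coptidis. TFRC rose with the gingers (log2 changes 0.46 and 0.36), and its changes with Scutellariae and Coptidis were -0.042 (adjusted p = 0.327) and -0.049 (adjusted p = 0.209).

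With Zizyphi, TFRC (0.17) and CP (0.31) were higher at 500 than at 20 ug/mL (7.22% of all genes called), and neither was called in a fit of only these 2 groups (adjusted p = 0.417 and 0.313). The 20 ug/mL group holds replicate 1, which stood apart. Without its replicate 3, TFR2, SLC40A1 and IREB2 were called too (adjusted p = 0.0342, 0.0313 and 0.0309). With Pinelliae, CP was higher at 500 than at 20 ug/mL (0.24, adjusted p = 0.0353; 1.9% of all genes called), and the call was lost without any 1 of 4 libraries, replicates 2 and 3 at 500 ug/mL and replicates 1 and 3 at 20 ug/mL (adjusted p = 0.0659 to 0.409). The IREB2 fall between doses of dried ginger (-0.12, adjusted p = 0.0357) was -0.065 without the 500 ug/mL replicate 1 that stood apart (adjusted p = 0.316), and was lost without any 20 ug/mL library (adjusted p = 0.0577 to 0.0918) and in 5 other alternatives (adjusted p = 0.0516 to 0.232). That between doses of Coptidis (-0.15) was lost without replicate 2 at 8.4 ug/mL (adjusted p = 0.0525).

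**Figure D5:**
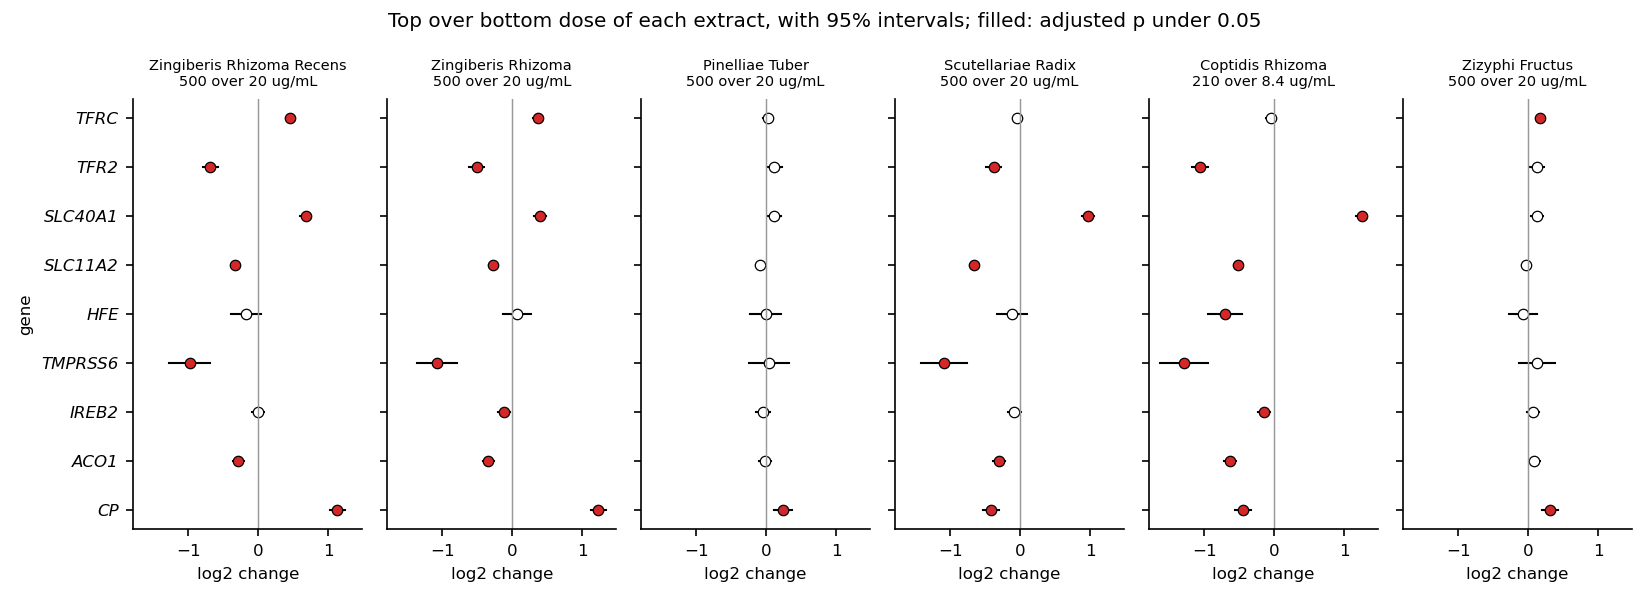
Log2 change of each tested member between the top and bottom dose of each extract (panels), with 95% intervals; filled points have an adjusted p under 0.05. SLC40A1 lies right of 0 and TFR2, SLC11A2, TMPRSS6 and ACO1 left of it with the gingers, Scutellariae and Coptidis, whereas CP lies at 1.13 and 1.23 with the gingers and at -0.42 and -0.45 with Scutellariae and Coptidis.

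Fresh and dried ginger were compared directly at each dose. At 500 ug/mL SLC40A1 was higher with fresh ginger, at 99.0, 92.1 and 98.5 CPM, against 80.5, 85.2 and 86.0 CPM with dried ginger (log2 change 0.20, SE 0.042, adjusted p = 0.00295), with no overlap, and was the member called among 1.83% of all genes. At 100 ug/mL CP was higher with fresh ginger, at 195, 205 and 187 CPM, against 160.0, 167 and 164 CPM with dried ginger (log2 change 0.26, SE 0.053, adjusted p = 0.00745), the member called among 0.379% of all genes. At 20 ug/mL no member was called in edgeR or DESeq2, none had an unadjusted p under 0.05 in either, and 0.0481% of all genes were called. The rise in SLC40A1 from 20 to 500 ug/mL was larger for fresh than for dried ginger by 0.27 on the log2 scale (SE 0.06, 95% interval 0.16 to 0.39, adjusted p = 0.0146; 0.655% of all genes called), by a test of the difference itself. These 3 calls rested on few libraries. That at 500 ug/mL was lost without dried ginger 500 ug/mL replicate 1 (adjusted p = 0.0584) and in a fit of only the 2 groups (adjusted p = 0.148). The CP call was lost without dried ginger 100 ug/mL replicate 1 (adjusted p = 0.0903) or fresh ginger 100 ug/mL replicate 2 (adjusted p = 0.15). The difference of dose changes was lost without replicate 1 or 3 of fresh ginger 500 ug/mL, replicate 1 of dried ginger 500 ug/mL or replicate 3 of fresh ginger 20 ug/mL (adjusted p = 0.0601 to 0.104) and in a fit of the 4 groups alone (adjusted p = 0.162). For TFRC the fresh minus dried difference at 500 ug/mL was 0.078 with a 95% interval of 0.011 to 0.14, and for CP 0.0049 with -0.10 to 0.11. Neither was called, and these intervals are not adjusted for the number of genes tested. The dried group holds replicate 1, which stood apart and had its lowest TFRC level.

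The dose change of Scutellariae differed from that of fresh ginger, 500 against 20 ug/mL in both, in 5 of the 9 members (28.4% of all genes called). For CP the difference was -1.55 (SE 0.081, adjusted p = 1.24e-20) and for TFRC -0.50 (SE 0.048, adjusted p = 1.29e-11), both lower with Scutellariae. SLC11A2 fell further with Scutellariae (-0.32, adjusted p = 1.04e-08), SLC40A1 rose further (0.30, adjusted p = 0.000129), and TFR2 fell less (0.31, adjusted p = 0.00133). For TMPRSS6 the difference was -0.11 with a 95% interval of -0.55 to 0.33, and for ACO1 -0.017 with -0.13 to 0.10.

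The ferritins, which store iron and carry the IREs shown above, rose with Coptidis, Scutellariae and both gingers at the top doses. FTH1, the heavy chain, had 4443, 4332 and 4366 CPM with Coptidis 210 ug/mL, against 1780.3, 1974 and 1909 CPM with vehicle (log2 change 1.21, SE 0.086, adjusted p = 1.39e-17), and rose by 1.00 with Scutellariae 500 ug/mL and 0.56 and 0.55 with fresh and dried ginger 500 ug/mL. FTL, the light chain, rose by 0.76, 0.36, 0.38 and 0.39 in these 4 groups. With Coptidis 42 ug/mL FTH1 rose by 0.57 and FTL by 0.56. FTH1 also rose where SLC40A1 fell, by 0.31 and 0.38 with Scutellariae 20 and 100 ug/mL. Where SLC40A1 was not called, FTH1 rose by 0.38 and 0.33 with Zizyphi 500 and 20 ug/mL and by 0.30 with Coptidis 8.4 ug/mL. FTL rose by 0.30 with Scutellariae 100 ug/mL and by 0.28 with Coptidis 8.4 ug/mL. With wortmannin, where SLC40A1 rose, FTH1 changed by -0.075 (adjusted p = 0.555) and FTL fell by 0.17. Of the 7 tested genes of ferritin and iron storage, counts were 4 higher and 2 lower with Coptidis 210 ug/mL (median log2 change 0.083) and 2 higher and 4 lower with Scutellariae 500 ug/mL (-0.19), where 69.4% and 50.2% of all genes were called, with NCOA4, which delivers ferritin for breakdown, among those that fell with Scutellariae (-0.52).

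Of 10 tested transcripts listed as carrying an IRE (among them the members TFRC, SLC40A1 and SLC11A2), 7 higher and 1 lower were called with Coptidis 210 ug/mL (median log2 change 0.48), 7 higher and 2 lower with Scutellariae 500 ug/mL (0.29) and 8 higher and 1 lower with fresh ginger 500 ug/mL (0.33), beside medians over all genes of -0.0029, 0.01 and -0.0007 and shares of all genes called of 69.4%, 50.2% and 46%. TFRC, with its sites in the 3′ UTR, and SLC40A1, FTH1 and FTL, with theirs in the 5′ UTR, rose together with the gingers and Scutellariae at 500 ug/mL, and at Coptidis 210 ug/mL the last 3 rose. Of 12 genes that act on IRP proteins or on decay of the TFRC transcript, counts were 8 higher and 1 lower with Coptidis 210 ug/mL, a share near the 69.4% of all genes called there. Its largest changes were those of ZFP36 (3.48), ZFP36L1 (1.87) and ZC3H12A (1.64), which encode proteins that speed transcript decay. ZFP36 also rose by 1.97 with Scutellariae 500 ug/mL and by 1.94 and 1.91 with fresh and dried ginger 500 ug/mL.

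Among 10 tested genes of other iron import, reduction and carriage, counts were 3 higher and 5 lower with Coptidis 210 ug/mL (median log2 change -0.35) and 3 higher and 3 lower with Scutellariae 500 ug/mL (0.028), beside the same shares of all genes. STEAP1, of the STEAP metalloreductase family, rose by 0.93 with Scutellariae and by 0.39 and 0.50 with fresh and dried ginger 500 ug/mL. TF, which encodes transferrin itself and is also one of the hepatocyte markers, fell by 0.84 with Scutellariae. HAMP, which encodes hepcidin, had 5.22, 6.12 and 5.16 CPM with Scutellariae 500 ug/mL, against 68.2, 66.0 and 63.9 CPM with vehicle (log2 change -3.59, SE 0.10, adjusted p = 2.67e-35), and 64.4, 60.4 and 64.8 CPM with Coptidis 210 ug/mL, which was not called (log2 change -0.063, adjusted p = 0.391). At the lower Coptidis doses HAMP fell, by 0.27 at 8.4 ug/mL (adjusted p = 0.00196) and by 0.36 at 42 ug/mL (adjusted p = 7.19e-06).

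Across the 20 group means of log2 CPM, which share 1 vehicle and the doses of each extract, TFRC followed CP (Pearson r = 0.86) and not TFR2 (-0.41) or SLC40A1 (0.07). TFR2, SLC11A2, TMPRSS6, HFE and ACO1 moved as a group, with r between 0.74 and 0.89 for every pair, and SLC40A1 ran against them, with r between -0.52 and -0.83. These are descriptions over 20 points that are not independent, and no p is given. How often other pairs of tested genes reach such r was not counted, so these values do not set the members apart from other genes. By the same measure over all tested genes, CP was most like PDK1 (r = 0.978), which encodes a kinase that restrains pyruvate dehydrogenase, and then TUBB1 (0.953) and FXYD1 (0.951). TFRC was most like C11orf24 (0.957), PGK1 (0.947), which encodes a glycolytic enzyme, and NCBP2 (0.94). SLC40A1 was most like DNAAF9 (0.969), SERINC1 (0.963) and PNPLA8 (0.952), TFR2 like LDHD (0.98), PRLR (0.973) and KLC4 (0.972), and TMPRSS6 like MMP11 (0.973), C4BPA (0.972) and NAALADL1 (0.969). ACO1 was most like ZCCHC14 and HADH (both 0.98) and RFX7 (0.978), SLC11A2 like TMEM135 (0.968), BCAS1 (0.965) and RBBP7 (0.963), and HFE like CCDC15 (0.957), IDH2 (0.954) and TIGD1 (0.952). For IREB2, whose level varied least, the closest were QSER1 (0.802), TAF1 (0.798) and ZNF106 (0.795).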

How the data were processed

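Total RNA of 59 HepG2 libraries was sequenced. The values deposited by the authors are expected counts. The submitters' processing notes name RSEM 1.3.3, STAR 2.7.3a, Trim Galore 0.6.5 and FastQC 0.11.9, and the build hg38 (GRCh38). An expected count shares a read that maps to several genes between them, so values of similar genes are uncertain. Of 267 columns, 59 matched these samples and 208 were not used. Values were rounded to the nearest whole count, since the test takes counts. Genes were filtered with filterByExpr and scaled by TMM, and 1 quasi-likelihood fit of 20 group means was made in edgeR 4.0.16 (limma 3.58.1, R 4.3.3), with no covariate. Each comparison was a contrast in that fit, with Benjamini-Hochberg adjustment over 16641 genes and a threshold of 0.05. Where the text gives an adjusted p for an alternative, it comes from that refit.

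The alternatives were RLE size factors, DESeq2 1.42.0, no filter, the replicate block, the 3 libraries that stood apart left out, only the groups compared, and each library left out in turn. On data simulated for Scutellariae 500 ug/mL against vehicle, with 200 of 16136 genes changed, edgeR called 99% of the changed and 0.0816% of the unchanged genes. The simulated folds were larger than those of many called members, and every gene was given the same dispersion. Far fewer genes were changed than the 50.2% called in the real comparison. These are therefore not error rates of the calls reported here. The members, the lists of other iron genes and the tests were chosen with earlier results of these data known. All members are named, and from each other list up to 3 called genes with the largest log2 change, with FTH1, FTL, HMOX1 and HAMP named whatever their values. Their values are not given for every comparison, and some called changes of HMOX1 and HAMP are left out. For each tested member the 3 genes of highest correlation are named. Levels between genes were divided by GENCODE 29 exon length. Library totals of 21582620 to 31392112 set the precision.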

Additional observations from a re-analysis of the deposited data

Results flagged for a closer look

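For 6 values, the dose change (500 over 20 ug/mL) of 1 extract differed from that of another by a test of the difference itself in the edgeR fit. For SLC40A1, the dose change of fresh ginger exceeded that of dried ginger by 0.27 on the log2 scale, and the call was lost without any 1 of 4 libraries, as given above. The dose change of Scutellariae minus that of fresh ginger was -1.55 for CP, -0.50 for TFRC, -0.32 for SLC11A2, 0.30 for SLC40A1 and 0.31 for TFR2. These 5 were called in every alternative run, leaving out each library included.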

How the results depend on the processing

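No direction of a called value turned in any alternative. The number of members called over the 3 doses of Zizyphi was 1 with no filter on low counts, against 2 in the fit as reported. In fits of only the groups compared, it was 0 between the top and bottom dose of Zizyphi and 1 between fresh and dried ginger, against 2 in both as reported. With each library left out in turn, the counts over 3 doses against vehicle were 11 to 14 for fresh ginger, 10 to 12 for dried ginger, 1 to 3 for Pinelliae, 12 to 14 for Scutellariae, 16 to 18 for Coptidis and 0 to 3 for Zizyphi, and those with wortmannin 4 to 5. Between top and bottom doses they were 7 in every case for fresh ginger, 7 to 8 for dried ginger, 0 to 1 for Pinelliae, 6 in every case for Scutellariae, 7 to 8 for Coptidis and 2 to 5 for Zizyphi, and between fresh and dried ginger 1 to 2. In none of 28 comparisons did every pair of same-numbered libraries correlate over 0.1 (range -0.247 to 0.328, median -0.0125). Pairs of different numbers were not set beside them, so this rule cannot exclude pairing by replicate number. With the replicate block, 257 of 258 member values kept direction and side of the threshold, and the other was SLC40A1 between doses of Zizyphi (0.13, adjusted p = 0.0498), called with the block. Of 258 member values, 254 did so with RLE size factors, 251 with DESeq2, 245 with no filter, 246 without the libraries that stood apart and 244 in fits of only the groups compared. Low counts limit HJV, HFE and TMPRSS6.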

Other observations

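Of 21 tested genes of heme synthesis, transport and degradation, 10 higher and 9 lower were called with Coptidis 210 ug/mL, 9 higher and 7 lower with Scutellariae 500 ug/mL, 9 higher and 6 lower with fresh ginger 500 ug/mL and 6 higher and 3 lower with wortmannin. The medians of the list were -0.063, 0.0079, 0.028 and 0.083 on the log2 scale, beside -0.0029, 0.01, -0.0007 and 0.017 over all genes, of which 69.4%, 50.2%, 46% and 32.2% were called. HP and HPX, the plasma proteins that bind free hemoglobin and heme, had log2 changes of -2.96 and -1.69 with Coptidis 210 ug/mL, both called. ALAS1, the first enzyme of heme synthesis in the liver, rose by 0.47 with fresh ginger 500 ug/mL and by 0.44 with dried ginger 500 ug/mL. HMOX1, which breaks down heme, rose by 0.83 with Coptidis 210 ug/mL and by 1.02 with Scutellariae 500 ug/mL, and fell by 0.45 with Coptidis 42 ug/mL and by 0.33 with wortmannin.

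Of 32 tested genes of mitochondrial iron and iron-sulfur clusters, 7 higher and 19 lower were called with Coptidis 210 ug/mL (median log2 change -0.21), 7 higher and 7 lower with Scutellariae 500 ug/mL (-0.0062) and 3 higher and 9 lower with fresh ginger 500 ug/mL (-0.061), beside the shares of all genes just given. GLRX5, a glutaredoxin that carries iron-sulfur clusters in mitochondria, fell in these 3 groups, with log2 changes of -1.06, -0.72 and -0.66. FDXR, which passes electrons to ferredoxin, fell by 0.77 with Coptidis 210 ug/mL and rose by 0.79 with Scutellariae 500 ug/mL. Of 18 tested genes of hepcidin and its control, a list that holds no member, 9 higher and 5 lower were called with Coptidis 210 ug/mL (median log2 change 0.14) and 3 higher and 12 lower with Scutellariae 500 ug/mL (-0.30), where 69.4% and 50.2% of all genes were called. ID1, a target of bone morphogenetic protein signalling, fell by 1.34 with Scutellariae 500 ug/mL, where HAMP fell by 3.59. HAMP also fell by 1.65 with fresh ginger 500 ug/mL and by 1.91 with dried ginger 500 ug/mL. It fell with Pinelliae 500 ug/mL, to 23.7, 21.5 and 22.7 CPM, and with Zizyphi 500 ug/mL, to 31.1, 31.3 and 29.9 CPM, against 68.2, 66.0 and 63.9 CPM with vehicle.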
